A study of Mus musculus with 9 samples.

Results

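Transcript levels of 59 Rab genes, of 18193 genes in all, were compared across 3 sorted cell populations of normal mouse bone marrow. These populations are called stages below and the differences between them steps, but descent of one from another was not tested. A gene was a member if the annotation of the array names it Rab followed by a number and at most one letter. Expression was read on 9 Affymetrix microarrays, 3 per population, and each value is log2(intensity + 16) of one probe set, a group of short probes against one transcript. Of the members, 38 have several probe sets, and the brightest was used, out of 132 in all.

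All cells came from the marrow of C57BL/6 mice of either sex, 4 to 10 weeks old, which the labels call normal, with no altered gene and no agent named. The first population, called MAC1- myeloblasts here, was c-kit+ Gr1+ Mac1- in the source names, while the labels' description writes Mac1lo/- for the same cells. The second, the MAC1+ myeloblasts, was c-kit+ Gr1+ Mac1+. Both were sorted as negative for the lineage antigens CD3, CD4, CD8, B220, TER119 and IL7Rα, and both looked like undifferentiated cells or myeloblasts. The third was c-kit- Gr1+ Mac1+ and was described as mature neutrophils. The labels do not say whether replicate arrays came from separate animals, so the p-values reflect only how much these arrays varied, and that variation may be technical. Since whole sorted populations were measured, fewer cells of a type and less RNA per cell cannot be told apart.

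Rab proteins are small GTPases that act as switches on the surface of membranes. Exchange factors load them with GTP, the active form recruits effectors that move, tether or fuse vesicles, GTPase-activating proteins switch them off, and a lipid added by prenylation anchors them in the membrane. In neutrophils the family is known for steering the release of secretory granules, the recycling of surface receptors and the maturation of phagosomes.

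The sort antigens followed the labels. Itgam, which encodes the alpha chain of Mac1, had mean values of 6.45 in MAC1- myeloblasts, 9.69 in MAC1+ myeloblasts and 11.55 in neutrophils, and Kit had 11.63, 11.71 and 7.84. The summed intensity of 7 neutrophil markers was 15700 to 19300, 72700 to 83200 and 78900 to 98900 in the same order, and that of 6 myeloblast markers 73500 to 81500, 72100 to 85100 and 2790 to 16000. The sum of 8 monocyte and macrophage markers was 49800 to 53400 in MAC1- myeloblasts, 4880 to 5950 in MAC1+ myeloblasts and 12900 to 21400 in neutrophils, so it differed between the populations in every Rab comparison, and its part in those results was not tested. One array stood apart: the correlation of neutrophil array 1 with the other neutrophil arrays was 0.926 and 0.94, while the other replicate pairs gave 0.986 to 0.994. The log2 ratio of the 3′ to the 5′ probe set of the actin control, a sign of RNA quality and amplification, was 1.12 to 1.32 on the MAC1- arrays, 0.73 to 1.12 on the MAC1+ arrays and 0.61 to 0.88 on the neutrophil arrays, so it separated MAC1- myeloblasts from neutrophils, while that of the Gapdh control overlapped (0.94 to 1.43 over all arrays). Its part in the Rab results was not tested. On neutrophil array 1, 10 Rab genes lay at least 1 log2 unit outside neutrophil arrays 2 and 3, 4 of them above and 6 below.

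Rab genes were more often higher than lower in MAC1+ than in MAC1- myeloblasts. In limma's test with all genes adjusted together, 11 of the 59 rose and 3 fell at an adjusted p under 0.05, which is 23.7% called against a background of 11.8% of all genes (6.31% higher and 5.51% lower). The largest increases were those of the granule gene Rab37 by 1.42, of Rab3d by 1.35 and of Rab28 by 1.29 log2 units, and the median difference was 0.14 against -0.01 for all genes. Brightness bears on such shares: among genes with a mean above that of the median gene (6.97), 26.8% of 41 Rab genes and 18.8% of all genes were called. The difference between these shares was not tested. The count depended on the arrays used. Leaving out any one of the 6 myeloblast arrays left 5 or 6 Rab genes higher and 1 or 2 lower, or 10.2% to 13.6% called. Leaving out neutrophil array 1 gave 19 and 5, or 40.7%. The share of all genes called moved too, to 7.24% to 8.11% and to 23% in these settings. The increases of Rab3d, Rab28, Rab6a and Rab21 stayed called under every alternative that measured them, as did the decrease of Rab39. The first-step calls of Rab20 and Rab11a were lost with each array centred on its median (adjusted p = 0.0772 and 0.0512 in limma).

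Neutrophils were compared with each immature stage, and these comparisons share the neutrophil arrays. Against MAC1+ myeloblasts, 15 Rab genes rose and 11 fell in limma's test, a share of 44.1% near the background of 48.1% (19.7% higher, 28.4% lower), so nothing particular to Rab genes was read from it. Among genes brighter than the median gene the shares were 53.7% of Rab genes and 71.6% of all genes. Of these calls 57.7% were increases, but the split moved with the scaling of the arrays. It was 14 higher and 17 lower with each array centred on its median, and 21 and 10 with quantile normalization. In both settings 52.5% of Rab genes were called, beside 46.7% and 47.4% of all genes. Centring shifted the median difference of all genes from 0.05 to -0.15. Without neutrophil array 1 the counts were 19 and 17, and without MAC1+ array 1 they were 15 and 7, where 54% and 42.6% of all genes were called. Against MAC1- myeloblasts, 24 Rab genes rose and 10 fell, or 57.6% called beside a background of 52.6%. Here 40.7% of Rab genes were higher against 22.6% of all genes, and 16.9% were lower against 30% of all genes, with medians of 0.33 and 0.05. Among genes brighter than the median gene, 68.3% of Rab genes and 76.4% of all genes were called. Centring left 17 higher and 10 lower, or 45.8% of Rab genes called beside 50.9% of all genes. Among the calls it removed were the increases of Rab1b, Rab8a, Rab8b, Rab9b, Rab21, Rab24 and Rab40c and the decrease of Rab18. By size, 13 of the increases and 8 of the decreases among the 59 Rab genes were at least 2-fold. Among all 18193 genes, 2682 increases and 4428 decreases were. Without Rab3a and Rab6b, 6 such decreases of Rab genes remained.

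**Figure D1:**
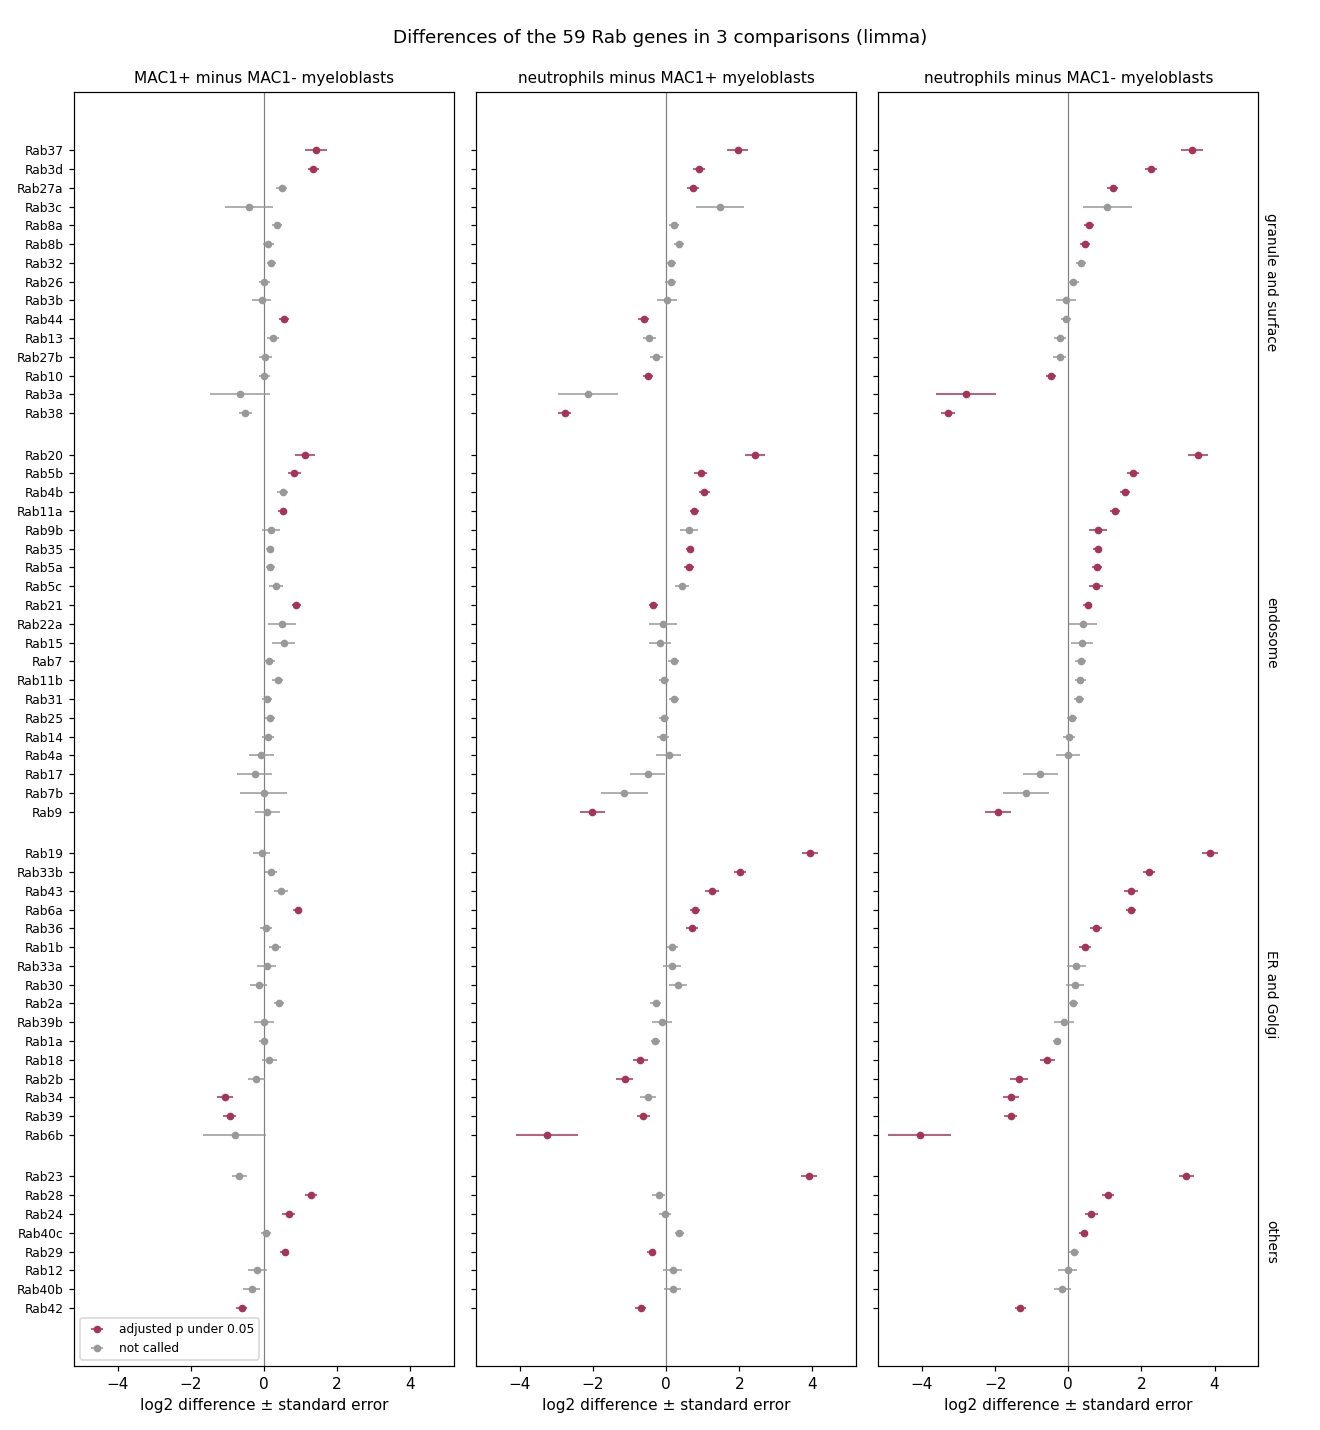
Log2 difference (x axis, with standard error) of each of the 59 Rab genes (y axis, grouped by compartment) in the 3 comparisons, red where the adjusted p was under 0.05 and grey otherwise. In the left panel 11 genes are called higher and 3 lower, in the middle panel 15 and 11, and in the right panel 24 and 10; the wide bars of Rab3a, Rab6b, Rab7b and Rab3c reflect arrays that differ within a population.

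Among the 15 Rab genes of secretory granules and surface traffic, 3 rose and 0 fell between the myeloblast stages. At an unadjusted p under 0.05 in limma's test 5 were higher and 1 lower. Of all 18193 genes, 2062 were higher and 1899 lower at that unadjusted threshold. Against MAC1+ myeloblasts 3 rose and 3 fell in neutrophils, and against MAC1- myeloblasts 5 rose and 3 fell. The shares called were 20%, 40% and 53.3%, against 11.8%, 48.1% and 52.6% of all genes, so nothing particular to the granule genes was read from them. The increases at both steps were those of Rab3d and Rab37, and the largest decrease was that of Rab38.

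Rab3d, a Rab of secretory granules in exocrine and mast cells, read 10.28, 10.09 and 10.10 on the MAC1- arrays, 11.42, 11.44 and 11.67 on the MAC1+ arrays, and 12.64, 12.37 and 12.22 on the neutrophil arrays. The 3 populations did not overlap, and neutrophils were highest. Rab3d rose by 1.35 ± 0.16 (SE, n = 3 arrays per population) between the myeloblast stages, a 2.56-fold change with an adjusted p of 0.000591 in limma. It rose by a further 0.90 ± 0.16 in neutrophils (adjusted p = 0.00124), which makes 4.78-fold over MAC1- myeloblasts. All 4 of its probe sets differed in the same direction in each comparison.

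Rab37, a Rab of mast cell granules and of cytokine secretion, read 5.58, 5.97 and 5.55 on the MAC1- arrays, 7.14, 7.10 and 7.13 on the MAC1+ arrays, and 8.34, 9.38 and 9.51 on the neutrophil arrays. The populations were separate, with neutrophil array 1 more than 1 log2 unit below the other neutrophil arrays. The increases were 1.42 ± 0.29 at the first step (adjusted p = 0.0127 in limma) and 1.96 ± 0.29 at the second (adjusted p = 0.000418). The first call was lost without MAC1- array 1 (adjusted p = 0.0565) or MAC1- array 3 (adjusted p = 0.0602). It was also lost with the mean of its probe sets (0.84, adjusted p = 0.0591), as the other probe set differed by 0.25 there and by 1.26 at the second step.

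Rab38, which serves the formation of melanosomes and other lysosome-related organelles, read 10.31, 10.24 and 10.08 on the MAC1- arrays, 9.64, 9.69 and 9.75 on the MAC1+ arrays, and 7.22, 6.59 and 6.94 on the neutrophil arrays. All neutrophil arrays lay far below all myeloblast arrays, and the myeloblast stages were also separate. The difference between the myeloblast stages was -0.51 ± 0.18 and missed the threshold in limma (adjusted p = 0.112). Rab38 then fell by 2.78 ± 0.18 in neutrophils (6.86-fold, adjusted p = 1.7e-06), and its other probe set differed by -3.13. Rab32, its closest relative in function, had differences of 0.20 (95% interval -0.10 to 0.50) and 0.14 (-0.16 to 0.45) at the same steps, neither past the threshold.

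Rab27a, which docks granules at the plasma membrane and is known for the release of azurophilic granules from neutrophils, read 10.98, 11.12 and 10.75, then 11.27, 11.48 and 11.55, then 12.27, 12.21 and 12.01. Its populations did not overlap. The first step, 0.48 ± 0.16, missed the threshold in limma (adjusted p = 0.0942), and the second was an increase of 0.73 ± 0.16 (1.66-fold, adjusted p = 0.00432). Its next brightest probe set differed by 1.23 at the second step, while the 2 dimmest differed by 0.03 and -0.03. For its paralog Rab27b the differences were 0.03 (95% interval -0.38 to 0.45) and -0.27 (-0.69 to 0.14), not past the threshold.

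Rab44, a large Rab with roles in the exocytosis of mast cell granules, read 12.48, 12.39 and 12.44 on the MAC1- arrays, 12.93, 12.90 and 13.11 on the MAC1+ arrays, and 12.54, 12.31 and 12.24 on the neutrophil arrays. The MAC1+ arrays were the highest, and the other populations overlapped. It rose by 0.54 ± 0.14 (adjusted p = 0.0375 in limma) and then fell by 0.62 ± 0.14 (adjusted p = 0.00549). The increase was not called when any one of the myeloblast arrays or neutrophil array 2 was left out, at adjusted p of 0.0502 to 0.148. Of 6 mast cell and basophil markers, Mcpt8 read 9.57 to 9.73 in MAC1- myeloblasts, 9.26 to 9.48 in MAC1+ myeloblasts and 4.88 to 6.2 in neutrophils, and Fcer1a stayed between 4.12 and 4.98 on all arrays. At the second step 1 of the 6 markers rose and 3 fell, and their summed intensity was 3990 to 4770, 6860 to 7530 and 8620 to 11400 over the populations, most of it from Hdc; their part in the values of Rab44 was not tested.

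Rab8a and Rab8b serve transport from the Golgi to the surface. By their brightest probe sets they passed the test only against MAC1- myeloblasts, with increases of 0.56 ± 0.13 and 0.46 ± 0.14. The second probe set of Rab8a rose by 1.18 against MAC1+ and by 1.36 against MAC1- myeloblasts (adjusted p = 0.00629 and 0.00241 over all probe sets in limma). The call of Rab8b was lost without MAC1- array 1 (adjusted p = 0.0795 in limma), and its other probe set differed by -0.06. Rab10, a Rab of surface delivery, fell by 0.49 ± 0.14 against MAC1+ myeloblasts and by 0.48 ± 0.14 against MAC1- myeloblasts. These calls were lost without MAC1+ array 3 (adjusted p = 0.0604) and without MAC1- array 3 (adjusted p = 0.054). The call against MAC1- myeloblasts was also lost with the mean of probe sets (-0.34, adjusted p = 0.0786 in limma). The next brightest probe set of Rab10 differed by -0.23 against MAC1+ and by 0.12 against MAC1- myeloblasts. Rab13, Rab26, Rab3b and Rab3c were called in none of the comparisons.

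**Figure D2:**
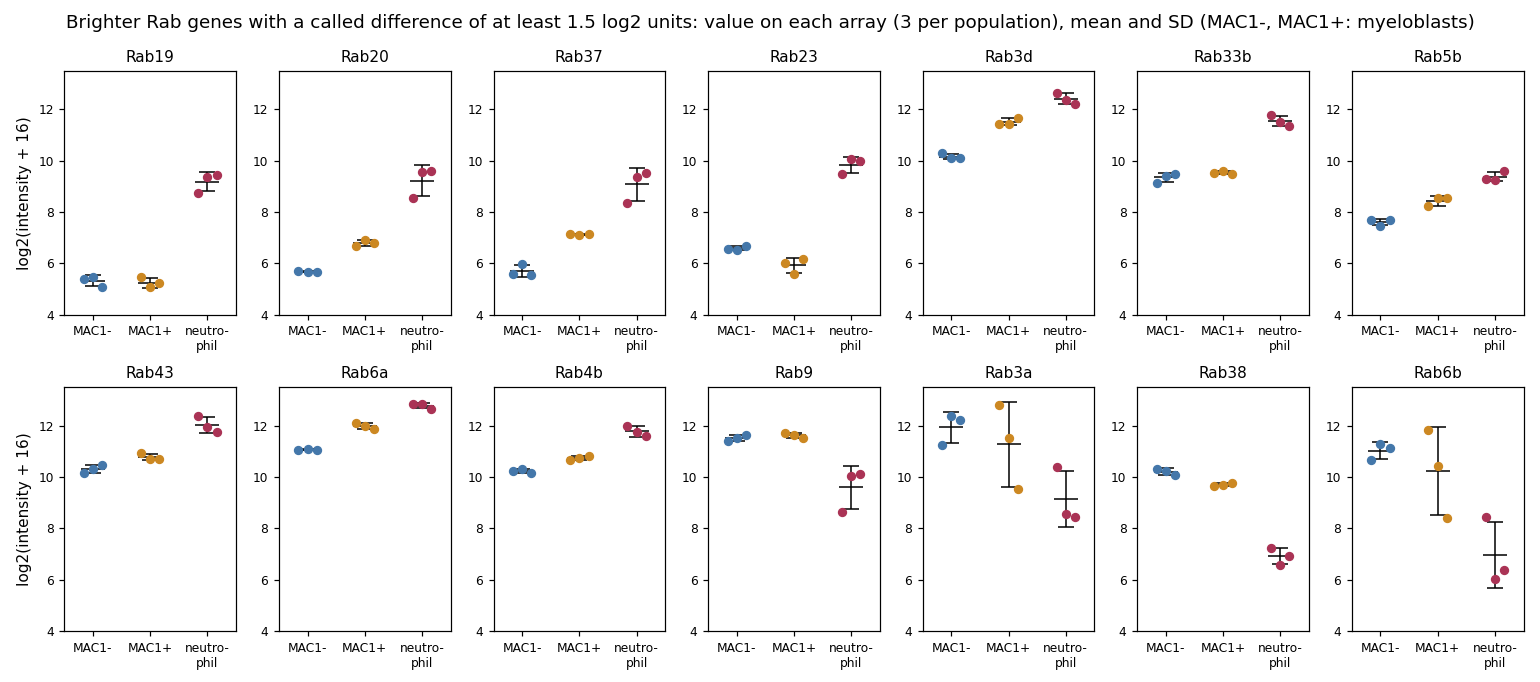
Value of log2(intensity + 16) (y axis) on each of the 3 arrays of each population (x axis; MAC1- and MAC1+ are the myeloblasts) for the 14 Rab genes with a called difference of at least 1.5 log2 units and a mean above that of the median gene (6.97) in some population; Rab34 and Rab39, each -1.57 in neutrophils against MAC1- myeloblasts, are dimmer and not drawn; black marks are the mean and SD. Rab3d, Rab20 and Rab37 climb in separate steps, Rab19 and Rab23 are high only on neutrophil arrays, where Rab38 lies at 6.59 to 7.22, and Rab3a and Rab6b scatter within the MAC1+ myeloblasts.

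The 20 Rab genes of endosomes and phagosomes included 4 that rose and 0 that fell between the myeloblast stages. At an unadjusted p under 0.05 in limma's test 6 were higher and 0 lower, beside 2062 and 1899 of all 18193 genes. In neutrophils 6 rose and 2 fell against MAC1+ myeloblasts, and 9 rose and 1 fell against MAC1- myeloblasts. The shares called, 20%, 40% and 50%, lay beside 11.8%, 48.1% and 52.6% of all genes. The early endosome gene Rab5b, the recycling genes Rab4b, Rab11a and Rab35 and the phagosome gene Rab20 were among those higher in neutrophils, and Rab9 was the one gene lower in both neutrophil comparisons.

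Rab20, which acts in the maturation of phagosomes, read 5.69, 5.67 and 5.67 on the MAC1- arrays, 6.68, 6.90 and 6.81 on the MAC1+ arrays, and 8.53, 9.54 and 9.61 on the neutrophil arrays. The populations were separate, and neutrophil array 1 was the lowest of its group. Its steps were 1.12 ± 0.27 (adjusted p = 0.0262 in limma) and 2.43 ± 0.27 (adjusted p = 5.76e-05). As the MAC1- intensities were 34.8 to 35.8, the size depends on the offset too. The first step was not called when any one of the 6 myeloblast arrays was left out, at adjusted p of 0.0679 to 0.0984.

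Rab5b, one of 3 Rab5 proteins that drive the fusion of early endosomes, read 7.70, 7.47 and 7.68, then 8.22, 8.55 and 8.56, then 9.30, 9.25 and 9.60. Each population lay above the previous one without overlap. It rose by 0.83 ± 0.17 (adjusted p = 0.0113 in limma) and by 0.94 ± 0.17 (adjusted p = 0.00127), 3.4-fold over both steps. The first call was lost without MAC1- array 2 (adjusted p = 0.0608), MAC1+ array 2 (adjusted p = 0.0568) or MAC1+ array 3 (adjusted p = 0.052), and its second probe set differed by 0.29 and 0.27. Rab5a rose by 0.62 ± 0.13 in neutrophils against MAC1+ myeloblasts. Rab5c differed by 0.43 ± 0.19 there (adjusted p = 0.0896) and passed the test only against MAC1- myeloblasts, by 0.75 ± 0.19.

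Rab4b, a Rab of the fast recycling route back to the surface, read 10.24, 10.29 and 10.14, then 10.65, 10.74 and 10.81, then 11.98, 11.74 and 11.59. Again no populations overlapped. The first step of 0.51 ± 0.15 missed the threshold in limma (adjusted p = 0.0554), and the second was an increase of 1.04 ± 0.15 (2.05-fold, adjusted p = 0.000294). Rab11a, of the slow recycling route, rose by 0.77 ± 0.13 at the second step (adjusted p = 0.00104) and by 1.28 ± 0.13 over both. Its first step of 0.51 ± 0.13 was called (adjusted p = 0.0378), yet not when any one myeloblast array was left out, at adjusted p of 0.0731 to 0.17. Rab35, which returns receptors from endosomes to the surface, rose by 0.65 ± 0.12 in neutrophils against MAC1+ myeloblasts (adjusted p = 0.00193). That call was lost with each array centred on its median (0.45, adjusted p = 0.0513). Rab11b, a paralog of Rab11a, differed by 0.37 and -0.05 at the 2 steps and was not called, while its second probe set rose by 0.60 and 0.76 (adjusted p = 0.0405 and 0.00227 over all probe sets in limma).

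Rab9, which returns mannose 6-phosphate receptors from late endosomes to the Golgi, read 11.40, 11.53 and 11.62 on the MAC1- arrays, 11.71, 11.62 and 11.51 on the MAC1+ arrays, and 8.63, 10.03 and 10.11 on the neutrophil arrays. The myeloblast stages overlapped and every neutrophil array was lower, array 1 by the most. Rab9 fell by 2.02 ± 0.35 against MAC1+ myeloblasts (4.06-fold, adjusted p = 0.00109 in limma) and by 1.93 ± 0.35 against MAC1- myeloblasts. Its paralog Rab9b, under an intensity of 100 on every array, rose by 0.81 ± 0.25 against MAC1- myeloblasts (adjusted p = 0.024). That call was lost without any one of the MAC1- arrays or neutrophil arrays 1 and 3, at adjusted p of 0.0507 to 0.0795.

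Rab21, which carries integrins through early endosomes, read 11.66, 11.61 and 11.64, then 12.53, 12.45 and 12.57, then 12.25, 12.17 and 12.07. MAC1+ myeloblasts were the highest and the populations did not overlap. The increase of 0.88 ± 0.13 between the myeloblast stages was called in limma (adjusted p = 0.00186). The decrease of 0.35 ± 0.13 in neutrophils was near the threshold (adjusted p = 0.0438), was lost when any one array other than neutrophil array 1 was left out (adjusted p of 0.0686 to 0.116), and its other probe set differed by 0.56.

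For several endosome genes the brightest probe set was not called while another one was. Rab7, of late endosomes and lysosomes, had a difference of 0.14 (95% interval -0.21 to 0.49) between the myeloblast stages and 0.20 (-0.15 to 0.55) in neutrophils against MAC1+ myeloblasts. For Rab14, of endosomes and the trans-Golgi network, the values were 0.10 (-0.25 to 0.45) and -0.09 (-0.45 to 0.26). For Rab31, a relative of Rab5 and Rab22a, they were 0.07 (-0.26 to 0.40) and 0.22 (-0.11 to 0.55). These intervals exclude a 2-fold change in either direction for the brightest probe sets only. The second probe set of Rab7 rose by 0.95 at the second step and by 1.25 over both (adjusted p = 0.00893 and 0.00159 over all probe sets in limma), and that of Rab31 rose by 1.05 and 1.09 (adjusted p = 0.00481 and 0.00337). With the mean of its probe sets, Rab14 was higher in neutrophils than in MAC1+ myeloblasts by 0.56 (adjusted p = 0.0198 in limma). Its 7 probe sets disagreed there. Dimmer ones rose by 1.75 and 2.84 (adjusted p = 0.00132 and 0.000131 over all probe sets), while the others differed by -0.53 to 0.04 and were not called. Rab7b, Rab17, Rab22a and Rab15 were not called, and each had neutrophil array 1 at least 1 log2 unit away from the other neutrophil arrays (2.29 above for Rab7b, and for the others -1.96, -1.50 and -1.05). A second, dimmer probe set of Rab7b read 7.46 to 8.24 on the myeloblast arrays and 4.36 to 4.57 on the neutrophil arrays, without overlap, and fell by 3.41 against MAC1+ myeloblasts and by 3.28 against MAC1- myeloblasts (adjusted p = 3.37e-06 and 3.23e-06 over all probe sets in limma). The 3 other probe sets of Rab22a differed by 0.48, 1.10 and 1.30 in neutrophils against MAC1- myeloblasts, each called. Rab25 and Rab4a stayed under an intensity of 100 on every array.

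Of the 16 Rab genes of the endoplasmic reticulum and Golgi, 1 rose and 2 fell between the myeloblast stages. In neutrophils 5 rose and 4 fell against MAC1+ myeloblasts, and 6 rose and 5 fell against MAC1- myeloblasts. These are 18.8%, 56.2% and 68.8% of the group, beside 11.8%, 48.1% and 52.6% of all genes. Rab6a was the gene that rose at both steps, and Rab19, Rab33b and Rab43 rose in neutrophils by 1.25 to 3.94 log2 units.

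Rab19, a Rab of the Golgi with few described roles, read 5.39, 5.49 and 5.08 on the MAC1- arrays, 5.46, 5.07 and 5.23 on the MAC1+ arrays, and 8.76, 9.37 and 9.43 on the neutrophil arrays. The myeloblast stages overlapped, while all neutrophil arrays were far higher. The step between the myeloblasts was -0.07 (95% interval -0.56 to 0.43). In neutrophils Rab19 rose by 3.94 ± 0.22 over MAC1+ myeloblasts (adjusted p = 7.26e-07 in limma) and by 3.87 ± 0.22 over MAC1- myeloblasts. The myeloblast intensities of 17.5 to 28.9 were close to the added 16, so the size depends on it: the first difference was 4.63 with an offset of 1 and 2.87 with 64.

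Rab33b, which binds the autophagy protein Atg16l1 at the Golgi, read 9.15, 9.41 and 9.48, then 9.53, 9.59 and 9.49, then 11.77, 11.51 and 11.36. The MAC1+ arrays were barely above the MAC1- arrays, and the neutrophil arrays were clearly separate. The first step of 0.19 ± 0.16 was not called (adjusted p = 0.63), and the second was an increase of 2.01 ± 0.16 (4.04-fold, adjusted p = 6.61e-06). Rab33a stayed under an intensity of 100 on every array.

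Rab43, which helps keep the Golgi in shape, read 10.15, 10.29 and 10.47, then 10.92, 10.71 and 10.70, then 12.38, 11.93 and 11.75. The populations were separate. The first step of 0.47 ± 0.19 missed the threshold (adjusted p = 0.179), and in neutrophils Rab43 rose by 1.25 ± 0.19 (2.37-fold, adjusted p = 0.000492). Its next brightest probe set differed by 1.71 and the dimmest by 0.47.

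Rab6a, which drives retrograde transport through the Golgi, read 11.04, 11.10 and 11.06, then 12.09, 12 and 11.87, then 12.84, 12.83 and 12.66. Each stage lay above the one before without overlap. It rose by 0.92 ± 0.13 (adjusted p = 0.00189 in limma) and by 0.79 ± 0.13 (adjusted p = 0.000866), 3.27-fold over both steps, and its 3 probe sets differed in the same direction at each step.

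Rab2b, a Rab of transport between the endoplasmic reticulum and Golgi, fell by 1.14 ± 0.24 in neutrophils against MAC1+ myeloblasts (adjusted p = 0.00396), but its 5 probe sets did not go one way: the second brightest differed by 0.70. Rab18, which acts at the endoplasmic reticulum and lipid droplets, fell by 0.71 ± 0.21 there (adjusted p = 0.0212), a call lost without MAC1+ array 1 (adjusted p = 0.0556) or MAC1+ array 2 (adjusted p = 0.0657). Against MAC1- myeloblasts its decrease of 0.57 ± 0.21 was called at an adjusted p of 0.049 and lost when any one myeloblast array was left out (0.07 to 0.133). Rab34, known from cilia and lysosome positioning, fell by 1.08 ± 0.22 between the myeloblast stages (adjusted p = 0.0112), a call lost without MAC1- array 2 or MAC1+ array 2 (adjusted p of 0.0568 and 0.0548). Rab39, a Rab of the Golgi and late endosomes, fell by 0.94 ± 0.18 at that step (adjusted p = 0.00867) and by 0.63 ± 0.18 in neutrophils against MAC1+ myeloblasts, always under an intensity of 100. The second call was lost without MAC1+ array 1 or neutrophil array 2 (adjusted p of 0.0614 and 0.0526).

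Rab1a and Rab2a, which act between the endoplasmic reticulum and Golgi in most cells, were called in none of the comparisons by their brightest probe sets. Rab1a differed by -0.01 (95% interval -0.29 to 0.27) between the myeloblast stages and by -0.30 (-0.58 to -0.02) in neutrophils against MAC1+ myeloblasts, with an adjusted p of 0.0701 in limma; with the mean of its probe sets it was 0.48 higher in neutrophils than in MAC1- myeloblasts (adjusted p = 0.0428). Rab2a differed by 0.41 (0.10 to 0.73, adjusted p = 0.103) and -0.29 (-0.61 to 0.02), and its second probe set rose by 0.53 over both steps (adjusted p = 0.0146 over all probe sets). Rab1b passed the test only against MAC1- myeloblasts, at 0.46 ± 0.16 (adjusted p = 0.0375), a call lost when any one array other than neutrophil arrays 1 and 3 was left out (0.0546 to 0.112). Rab36, under an intensity of 100 throughout, rose by 0.70 ± 0.17 in neutrophils, though its second probe set differed by 0.35 against MAC1+ and by -0.20 against MAC1- myeloblasts.

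The remaining 8 Rab genes were on none of the compartment lists. Between the myeloblast stages 3 of them rose (Rab24, Rab28 and Rab29) and 1 fell (Rab42). In neutrophils 1 rose and 2 fell against MAC1+ myeloblasts, and 4 rose and 1 fell against MAC1- myeloblasts. Of the 8 genes, 50%, 37.5% and 62.5% were called, beside 11.8%, 48.1% and 52.6% of all genes.

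Rab23, known as a brake on Hedgehog signalling, read 6.58, 6.53 and 6.69 on the MAC1- arrays, 6.03, 5.58 and 6.16 on the MAC1+ arrays, and 9.47, 10.05 and 9.97 on the neutrophil arrays. MAC1+ myeloblasts were the lowest and neutrophils the highest, without overlap. The first step of -0.68 ± 0.21 missed the threshold in limma (adjusted p = 0.0751). The second was an increase of 3.91 ± 0.21 (adjusted p = 5.99e-07), and the other probe sets of Rab23 differed by 3.85 and 1.07.

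Rab28, known from cilia and photoreceptors, read 10.46, 10.27 and 10.32, then 11.67, 11.63 and 11.60, then 11.13, 11.68 and 11.48. The MAC1- arrays were the lowest, and the MAC1+ and neutrophil arrays overlapped. It rose by 1.29 ± 0.17 between the myeloblast stages (2.44-fold, adjusted p = 0.00103 in limma), with 1.36 for its other probe set. The next step was -0.21 (95% interval -0.58 to 0.17).

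Rab29, which acts with the kinase Lrrk2 at the Golgi and lysosome, rose by 0.56 ± 0.13 (adjusted p = 0.0259) and then fell by 0.40 ± 0.13 (adjusted p = 0.0316). The rise was lost when any one myeloblast array was left out (adjusted p of 0.0648 to 0.121), and the fall when any one array other than MAC1- array 1 and neutrophil arrays 1 and 2 was left out (0.0556 to 0.104). Rab24, linked to autophagy, rose by 0.67 ± 0.17 at the first step (adjusted p = 0.0316), a call lost without any myeloblast array except MAC1- array 1 (adjusted p of 0.051 to 0.142). The probe set used carries the suffix s, which marks probes shared by several transcripts, and without such probe sets the difference was 0.38 (adjusted p = 0.503). Rab42, always under an intensity of 100, fell by 0.61 ± 0.15 and by 0.70 ± 0.15, the first call lost when any one myeloblast array was left out (adjusted p of 0.0526 to 0.124). Rab40c, a Rab with a ubiquitin ligase motif, passed the test only against MAC1- myeloblasts, at 0.42 ± 0.13, while its other probe set differed by -0.10. That call was lost without MAC1- array 2 or 3 or neutrophil array 3 (adjusted p of 0.0558 to 0.101). Rab12, known from the recycling endosome and autophagy, was not called in any comparison with its brightest probe set, but was 1.27 higher in neutrophils than in MAC1+ myeloblasts with the mean of its probe sets. The brightest differed by 0.18 there and the dimmer one rose by 2.36 (adjusted p = 0.00502 over all probe sets in limma).

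Sequence upstream of the start site was set beside these values for the largest neutrophil increases. RefSeq promoter windows on GRCm38.p6 were matched for 48 of the 59 Rab genes, in 60 windows, and the 250 bases before the start were searched on both strands. The lines give the 250 bases of the 4 genes with the largest neutrophil increases over MAC1- myeloblasts that had a window (for Rab23 its first window), 5′ to 3′ on the strand of the gene, with matches to the GC box GGGCGG and the E-box CACGTG in capitals, as read on either strand.
Rab19 (chr6:39381103-39381352, plus strand): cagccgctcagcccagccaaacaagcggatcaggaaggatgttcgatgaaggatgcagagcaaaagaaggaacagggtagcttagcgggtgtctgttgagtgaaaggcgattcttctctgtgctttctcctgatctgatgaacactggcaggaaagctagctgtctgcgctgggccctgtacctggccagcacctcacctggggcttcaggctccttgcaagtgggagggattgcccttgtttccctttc
Rab20 (chr8:11478641-11478890, minus strand): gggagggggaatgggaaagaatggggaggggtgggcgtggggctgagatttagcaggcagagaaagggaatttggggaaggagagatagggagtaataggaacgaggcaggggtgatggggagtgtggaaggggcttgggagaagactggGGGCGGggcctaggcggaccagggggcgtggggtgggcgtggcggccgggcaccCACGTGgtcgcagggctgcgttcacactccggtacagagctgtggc
Rab23 (chr1:33719646-33719895, plus strand): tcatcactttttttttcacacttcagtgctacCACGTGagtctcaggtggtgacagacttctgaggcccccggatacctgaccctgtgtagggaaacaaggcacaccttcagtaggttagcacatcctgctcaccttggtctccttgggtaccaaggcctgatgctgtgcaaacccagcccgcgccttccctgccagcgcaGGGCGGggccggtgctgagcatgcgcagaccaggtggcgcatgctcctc
Rab3d (chr9:21918184-21918433, minus strand): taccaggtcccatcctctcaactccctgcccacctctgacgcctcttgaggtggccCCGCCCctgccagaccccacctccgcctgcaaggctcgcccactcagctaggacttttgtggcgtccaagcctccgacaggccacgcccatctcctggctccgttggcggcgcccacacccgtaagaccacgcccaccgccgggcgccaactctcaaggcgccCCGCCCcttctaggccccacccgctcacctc
The Rab20 window holds a GC box starting 100 bases and an E-box starting 46 bases before the start, the Rab23 window a GC box at 49 and an E-box at 218, and the Rab3d window GC boxes at 194 and 31. Neither motif is in the Rab19 window.

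The 2 motifs thus differ in presence or position between these 4 windows, and their part in the increases was not tested. Over all Rab windows the GC box was present in 66.7%, against 32.7% of 32851 windows of all genes, with a median GC content of 60.2% against 52.4%. The E-box was in 8.33% against 6.02%. Of motifs read by factors of myeloid cells, the ETS sequence GAGGAA was in 13.3% against 23.3%, and the C/EBP half-palindrome TTGCNNAA in 6.67% against 9.56%. Other forms of the ETS site were not searched, so these shares do not cover ETS sites in general. TATAAA was in 6.67% against 12.4%, and CCAAT in 40% against 33.8%. One pair of matches overlapped, of ETS and CCAAT. The GC box was in 13 of 17 windows of 12 Rab genes at least 2-fold higher in neutrophils than in MAC1- myeloblasts. It was in 6 of 9 windows of 7 Rab genes at least 2-fold lower. Some genes have several windows, and windows of Rab43 overlap, so windows are not independent counts of genes. A match describes letters only, and no factor's binding was measured.

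Rab3a and Rab6b went against the rest in how they varied. Both are best known from neurons, Rab3a from synaptic vesicle release and Rab6b as a neuronal form of Rab6. Rab3a read 11.24, 12.37 and 12.20 on the MAC1- arrays, 12.80, 11.50 and 9.52 on the MAC1+ arrays, and 10.39, 8.55 and 8.45 on the neutrophil arrays. Rab6b read 10.65, 11.29 and 11.12, then 11.82, 10.44 and 8.40, then 8.44, 6.04 and 6.39. For both genes the MAC1+ arrays spanned more than the gap between the myeloblast means, with array 3 lowest, and MAC1+ array 3 lay below neutrophil array 1, so the populations overlapped.

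As fitted in limma, Rab6b fell by 3.26 ± 0.86 against MAC1+ myeloblasts (adjusted p = 0.0116) and by 4.06 ± 0.86 against MAC1- myeloblasts (adjusted p = 0.00314). Rab3a fell by 2.81 ± 0.82 against MAC1- myeloblasts (adjusted p = 0.0171), a call lost without MAC1- array 2 or 3 or neutrophil array 2 or 3 (adjusted p of 0.0531 to 0.0581). These decreases rested on one probe set of each gene. The other probe set of Rab3a stayed between 5.43 and 6.28 on all arrays, and the next brightest of Rab6b between 4.97 and 6.57. With those in place, the differences against MAC1- myeloblasts were -0.18 (adjusted p = 0.53) for Rab3a and 0.44 (adjusted p = 0.315) for Rab6b. The brightest probe set of Rab3a carries the suffix x, which marks probes that may bind other transcripts; that of Rab6b does not.

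The patterns of Rab3a and Rab6b were nearly the same, with a Pearson correlation of 0.982 over the 9 arrays, and were shared by many unrelated genes. Of 18188 genes, 143 correlated with Rab6b above 0.95 over the same 9 arrays. The closest were Acvr2b, a receptor of the activin family, at 0.995, then E2f5, Lmf2 and Tnxb at 0.993. The closest to Rab3a was the chemokine gene Cxcl1, at 0.998, then Pik3cd at 0.995. Such correlations describe points that share arrays and populations. Of 5 B cell markers, Ebf1 had the same order within the MAC1+ arrays, at 13.52, 13.11 and 10.90. Cd79b read 9.15, 9.56 and 9.58 there, Cd79a and Vpreb1 did not keep the order, and Pax5 stayed between 5.59 and 6.00 on all arrays. The 8 monocyte and macrophage markers went both ways there. Ccr2 read 11.25, 10.23 and 8.35, and Irf8 read 8.81, 9.14 and 10.05. The part of the probes, the arrays or other cells in these decreases was not tested.

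**Figure D3:**
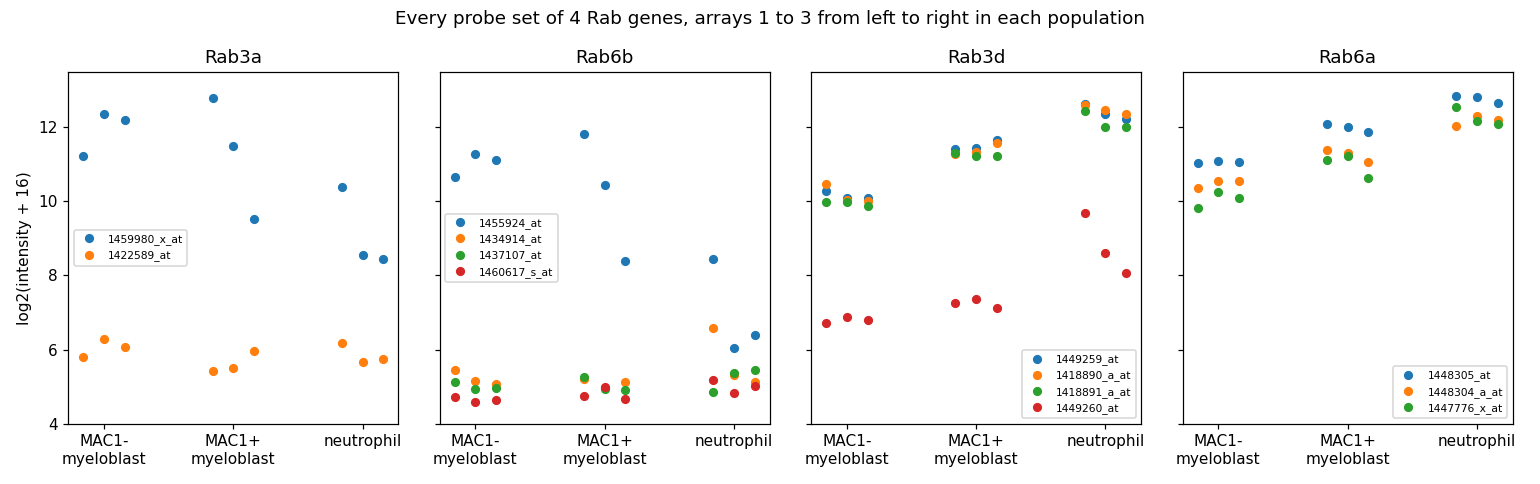
Every probe set (colours) of Rab3a, Rab6b, Rab3d and Rab6a, with log2(intensity + 16) on the y axis and the 9 arrays by population on the x axis. Rab3a and Rab6b each have one bright probe set that scatters within the MAC1+ myeloblasts and others at 4.59 to 6.57, whereas the probe sets of Rab3d and of Rab6a rise in the same order.

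Probe sets were compared for all called Rab genes with more than one. Between the myeloblast stages the next brightest probe set had the same sign for 9 of 9 genes and was itself called for 4. In neutrophils against MAC1+ myeloblasts the sign agreed for 12 of 15 (9 called), and against MAC1- myeloblasts for 16 of 22 (14 called). One gene, Rab2b, had a next brightest probe set called in the opposite direction (adjusted p = 0.0446 over all probe sets). Of the Rab genes not called that have several probe sets, some had another probe set called. These were 2 of 29 between the myeloblast stages, 10 of 23 in neutrophils against MAC1+ myeloblasts and 9 of 16 against MAC1- myeloblasts. The same share was not counted over all genes, of which 11.8%, 48.1% and 52.6% were called by their brightest probe sets. A gene not called here may still differ by another probe set.

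The genes that load, switch off and read Rab proteins were counted from lists, of which 138 of 146 members were measured. Between the myeloblast stages 25 rose and 10 fell, 25.4% against the background of 11.8% of all genes. Without one of the 6 myeloblast arrays 12 to 16 rose and without neutrophil array 1 39 did. Of all genes, 7.24% to 8.11% and 23% were called there. In neutrophils 43 rose and 37 fell against MAC1+ myeloblasts (58%, background 48.1%), and 51 rose and 40 fell against MAC1- myeloblasts (65.9%, background 52.6%). Among all genes brighter than the median gene, 18.8% were called between the myeloblast stages. In neutrophils 71.6% of these brighter genes were called against MAC1+ myeloblasts and 76.4% against MAC1- myeloblasts, above 58% and 65.9%. The regulator lists were not split by brightness, so whether their shares differ from those of equally bright genes was not tested.

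Exchange factors, 41 measured, had 9 higher and 3 lower between the myeloblast stages. In neutrophils 14 were higher and 7 lower against MAC1+ myeloblasts, and 16 and 9 against MAC1- myeloblasts. The shares called were 29.3%, 51.2% and 61%, beside 11.8%, 48.1% and 52.6% of all genes. Rin2, an exchange factor for Rab5, fell by 2.24 ± 0.36 between the myeloblast stages and rose by 5.59 ± 0.36 in neutrophils (adjusted p = 1.78e-06 in limma). Dennd1c, which acts on Rab35, rose by 1.2 ± 0.17 and then by 3.61 ± 0.17. Dennd3, which acts on Rab12, rose by 4.80 ± 0.16 in neutrophils. Ankrd27, which acts on Rab21 and binds Rab32 and Rab38, fell by 2.35 ± 0.31 in neutrophils against MAC1+ myeloblasts. Dennd6a, which acts on Rab14, fell by 1.15 ± 0.16 between the myeloblast stages.

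GTPase-activating proteins, 37 measured, had 8 higher and 3 lower between the myeloblast stages. In neutrophils 12 were higher and 13 lower against MAC1+ myeloblasts, and 15 and 13 against MAC1- myeloblasts. Of this list 29.7%, 67.6% and 75.7% were called, beside 11.8%, 48.1% and 52.6% of all genes. Tbc1d10c, found in blood cells, rose by 1.49 ± 0.17 at the first step and was 3.57 ± 0.17 higher in neutrophils than in MAC1- myeloblasts. Tbc1d8 rose by 2.29 ± 0.21 at the first step. Tbc1d14, which acts in autophagy, rose by 3.22 ± 0.15 in neutrophils against MAC1+ myeloblasts. Tbc1d4, known for the control of glucose transporter traffic through Rab10 and related Rabs, fell by 2.5 ± 0.33 at the first step and by 4.33 ± 0.33 over both. In neutrophils against MAC1+ myeloblasts Tbc1d7 fell by 3.16, Sgsm3 fell by 2.6 and Tbc1d8b fell by 2.52.

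Effectors, 49 measured, had 8 higher and 4 lower between the myeloblast stages. In neutrophils 14 were higher and 12 lower against MAC1+ myeloblasts, and 17 and 14 against MAC1- myeloblasts. Called were 24.5%, 53.1% and 63.3%, beside 11.8%, 48.1% and 52.6% of all genes. The Rab27a partners Sytl1 and Unc13d, which tether granules and prime them for release, rose by 2.64 ± 0.22 and 1.25 ± 0.13 at the first step (adjusted p = 7.15e-05 and 0.000342 in limma), where Rab27a itself missed the threshold. Sytl4, another Rab27a effector, fell by 0.65 ± 0.17 at that step (adjusted p = 0.04) and by 1.46 ± 0.17 over both. Lrrk2, a kinase that acts on Rab proteins, rose by 1.84 ± 0.16 at that step and was 4.51 ± 0.16 higher in neutrophils than in MAC1- myeloblasts. The Rab11 effectors went different ways: Rab11fip4 and Rab11fip1 rose by 4.85 ± 0.16 and 3.19 ± 0.18 in neutrophils against MAC1+ myeloblasts, and Rab11fip3 fell by 1.41 ± 0.33 between the myeloblast stages. Hook1, which links endosomes to microtubules, fell by 4.44 ± 0.16 in neutrophils (adjusted p = 9.71e-08). Ocrl, a lipid phosphatase that binds several Rabs, fell by 3.25 ± 0.28.

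**Figure D4:**
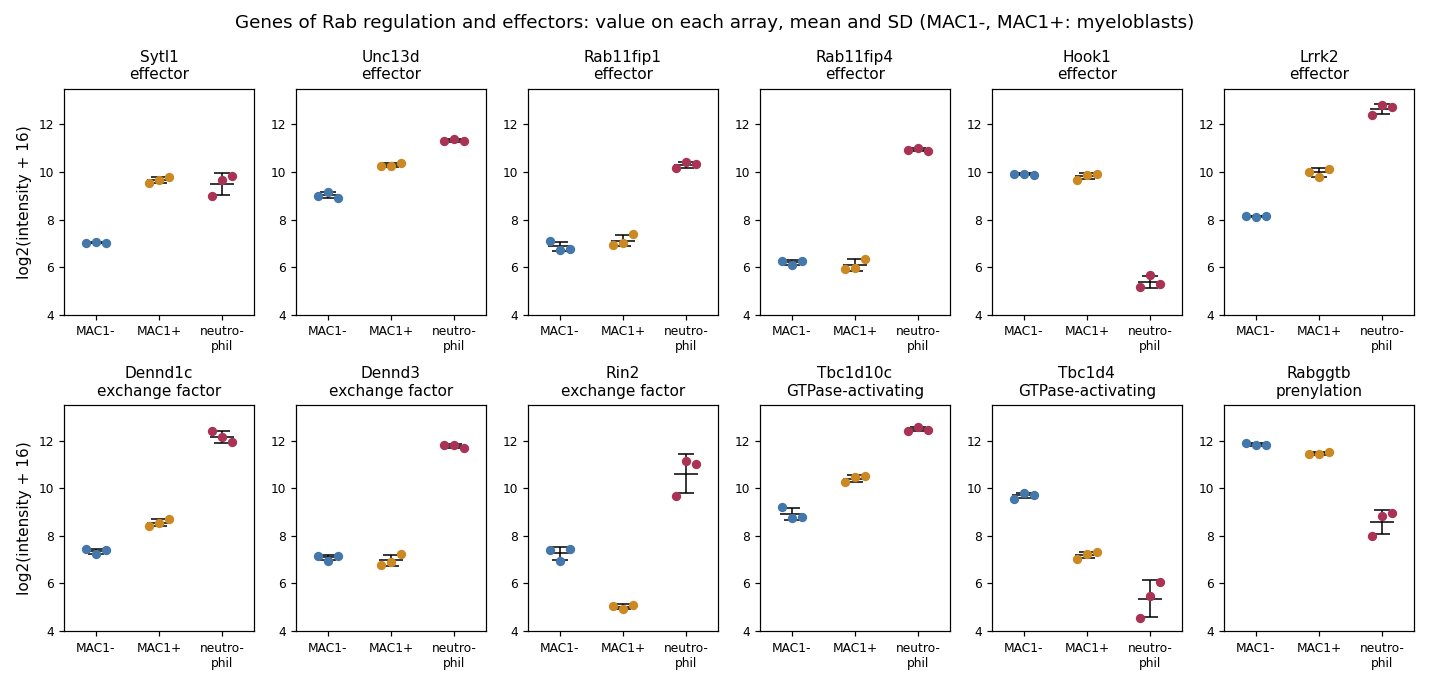
Value of log2(intensity + 16) (y axis) on each of the 3 arrays per population (x axis; MAC1- and MAC1+ are the myeloblasts) for 12 genes of Rab regulation and effectors, with mean and SD in black. Sytl1 and Unc13d are already higher in MAC1+ myeloblasts, Dennd3 and Rab11fip4 are high only on neutrophil arrays, and Hook1, Tbc1d4 and Rabggtb are low there.

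Genes of prenylation and recycling, 11 measured, had 0 called between the myeloblast stages in limma's test (1 higher and 1 lower at an unadjusted p under 0.05). At that unadjusted threshold 2062 of all 18193 genes were higher and 1899 lower. In neutrophils 3 rose and 5 fell against MAC1+ myeloblasts, and 3 rose and 4 fell against MAC1- myeloblasts. These are 0%, 72.7% and 63.6% of the list, beside 11.8%, 48.1% and 52.6% of all genes. Rabggtb, the catalytic subunit of the enzyme that prenylates Rab proteins, fell by 2.86 ± 0.23 against MAC1+ myeloblasts (7.28-fold, adjusted p = 7.9e-06). The escort proteins that present Rabs to this enzyme went opposite ways there: Chml fell by 2.72 ± 0.49 (adjusted p = 0.00136), and Chm rose by 1.12 ± 0.26 (adjusted p = 0.00633). Rabggta, the other subunit, rose by 0.85 ± 0.27 (adjusted p = 0.0267).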

How the data were processed

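The deposited table holds linear intensity for 45101 probe sets on 9 arrays. Per the labels' protocols, RNA was purified on columns, amplified over repeated rounds and labelled with biotin, which favours the 3′ ends of transcripts. Summarisation and scaling of the probes are not given in the sources used here, so scaling was varied. The number of arrays limits the precision. The median intensity per array was 39.1 to 61.8.

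Values were used as deposited, as log2(intensity + 16), which understates the change of dim genes. Probe sets that the platform annotation gives 1 gene (34945; 932 name several, 9160 none, 64 are controls) were kept, and each gene was read from its brightest probe set by mean. All 59 members were matched by gene ID to the RefSeq gene table, and 0 symbols changed. Populations were compared with limma 3.58.1 (R 4.3.3) in one model of 9 arrays, adjusted by Benjamini-Hochberg over 18193 genes. The procedure was tested on simulated data.

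The members, gene lists and tests were chosen with earlier results of these data known. Any member may be named. Values of every array are given for members called with a difference of at least 1.5 and a mean above the median gene in some population, and for a few others chosen after their values were seen (Rab27a, Rab44, Rab21 and Rab28). Of each regulator list, up to 4 called genes with the largest differences per comparison may be named; Chm, Rabggta, Sytl4, the array-pattern neighbours of Rab3a and Rab6b and single marker genes were named beyond that rule, after their values were seen. Alternatives were quantile normalization, centring, offsets of 1 and 64, omission of genes below the 40th percentile of brightness, the mean of probe sets, omission of probe sets with suffix x or s, another variance prior, only the 2 populations compared, array weights, a replicate block and leaving out each array.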

Additional observations from a re-analysis of the deposited data

How the results depend on the processing

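Of 74 called Rab differences, between 58 and 73 kept their call under each alternative. Between the myeloblast stages, 11 Rab genes higher and 3 lower became 18 and 5 with only the 2 populations compared and 20 and 6 with array weights. Leaving out one array gave 5 to 19 and 1 to 5. The share of all genes called moved as well, from 11.8% to 24.8%, to 31.7% and to 7.24% to 23% in these settings. The regulator lists, 25 and 10, became 41 and 17, and 46 and 24, and leaving out one array gave 12 to 39 and 6 to 18. In neutrophils against MAC1+ myeloblasts, 15 Rab genes higher became 26 with array weights, and 11 lower became 17 with centring, 7 with only the 2 populations compared and 19 with array weights; leaving out one array gave 15 to 19 and 7 to 17. Against MAC1- myeloblasts, 10 lower became 16 with array weights, and leaving out one array gave 20 to 27 higher and 7 to 13 lower. Of all genes, 46.7% were called against MAC1+ myeloblasts with centring, 41% with only the 2 populations compared and 67.2% with array weights, beside 48.1%. Against MAC1- myeloblasts 71.8% were called with array weights, beside 52.6%. When one array was left out, 40.8% to 54% of all genes were called against MAC1+ myeloblasts. Against MAC1- myeloblasts 45.7% to 58.3% were. The causes were not tested.

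Deviations from the population means correlated at -0.307 to 0.132 between same-numbered arrays of different populations. Between arrays with different numbers they correlated at -0.168 to 0.287. With 3 arrays per population these deviations depend on each other, so the values cannot decide whether same-numbered arrays were paired. The replicate block gave 7 Rab genes and 16 regulators higher between the myeloblast stages, and 65 of the 74 calls kept.

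Signs turned for a few differences. With the mean of probe sets these were Rab14 (0.56), Rab21 (0.10) and Rab22a (0.71) in neutrophils against MAC1+ myeloblasts, and Rab12 (1.26) and Rab1a (0.48) against MAC1- myeloblasts. With array weights they were Rab22a (0.39) and Rab4a (-0.75) against MAC1+ myeloblasts and Rab12 (0.31) against MAC1- myeloblasts, and Rab12 there ran from -0.18 to 0.32 when one array was left out, the highest without neutrophil array 1. With the next brightest probe set, an alternative chosen after seeing the data, Rab6b turned to 0.56 and 0.44. Genes under an intensity of 100 on all arrays, 12 of the 59, are limited by signal over background.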
